A study of Mus musculus with 2 samples.

Results

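The miR-181 family of the mouse was followed in the developing tongue primordium on microRNA arrays. Its members were the 4 miRNAs named mmu-miR-181a, mmu-miR-181b, mmu-miR-181c and mmu-miR-181d on the array, without the species prefix below, out of 1080 miRNAs in all, and they were read by 8 of the 2780 miRNA probes. They were chosen by name, with earlier results of these data known. Each member was matched to a mature sequence of the 5′ arm in RefSeq (4 of 4). The tissue was the medial mandibular arch of ICR embryos, an outbred strain with no stated mutation or treatment, taken from the E11.5 stage and the E10.5 stage. One pool of total RNA from 40 embryos represented each stage. Each pool was labelled with Cy3 and hybridised to 1 array, so the study has 1 sample per stage, no replicates, and no test of any difference. The stages flank the onset of myoblast differentiation in this tissue. A pool of whole dissected tissue cannot tell a change in the number of expressing cells from a change in the level per cell.

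MicroRNAs are short RNAs that guide Argonaute proteins to messenger RNAs, mainly through the seed, bases 2 to 8 from the 5′ end. The miR-181 family is known from vertebrate blood and muscle: in mouse T cells miR-181a tunes the strength of antigen receptor signalling, and in cultured mouse myoblasts miR-181 represses Hoxa11, a homeobox gene that restrains muscle differentiation. The members arise from precursors that lie side by side in the genome, so that neighbouring members can come from a shared transcript.

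The mature sequences show what the members share and where an array probe has to tell them apart. They are from the RefSeq table of GRCm38.p6, written 5′ to 3′ with the seed in capitals.
miR-181a: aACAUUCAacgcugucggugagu
miR-181b: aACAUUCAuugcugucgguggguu
miR-181c: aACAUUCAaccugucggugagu
miR-181d: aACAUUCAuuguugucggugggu
All 4 had the same seed, and in the RefSeq table no other mature mouse miRNA had it: the seed occurred in 4 mature miRNAs from 6 precursor genes. Counting positions from 1 at the 5′ end, miR-181a and miR-181b differed by A9U, C10U and A21G over 23 compared bases, and miR-181b carried 1 further base at its 3′ end. miR-181b and miR-181d differed over 23 bases by the single substitution C12U. miR-181c was the miR-181a sequence with the base at position 11 removed. By sequence the family thus splits into miR-181a with miR-181c and miR-181b with miR-181d, while the genome pairs them otherwise. On mm9, the build of the arrays, the probe targets of miR-181a and miR-181b lay 168 bases apart on chromosome 1 (139863054 to 139863067 and 139863236 to 139863249) and 1090 bases apart on chromosome 2 (38708270 to 38708283 and 38709374 to 38709387), all on the plus strand. Those of miR-181c and miR-181d lay 148 bases apart on the minus strand of chromosome 8 (86702792 to 86702809 and 86702628 to 86702643). The chromosome 2 precursors, Mir181a-2 and Mir181b-2, overlapped the gene of the nuclear receptor Nr6a1 and the noncoding RNA gene Nr6a1os in the GRCm38.p6 gene table, and the other 4 precursor genes overlapped no other listed gene. A signal of miR-181a or miR-181b can come from either of its 2 loci.

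Every member had 2 probes, which pair with its 3′ part. Those of miR-181a and miR-181b stop at base 11 or 10 of the miRNA, short of the seed, while those of miR-181d reach base 8 or 7 and those of miR-181c base 5 or 4, inside it. They are shown because they set what each signal can distinguish. Lower case marks the bases that the probe shares, from its 5′ end, with the nearest other member, and capitals mark the bases from the first departure onward. Capitals after the first can match that member again, as miR-181b and miR-181d differ over 23 bases by C12U alone.
miR-181a, 13 bases: actcaccgacagC
miR-181a, 14 bases: actcaccgacagCG
miR-181b, 13 bases: acccaccgacaGC
miR-181b, 14 bases: acccaccgacaGCA
miR-181c, 18 bases: actcaccgacagGTTGAA
miR-181c, 19 bases: actcaccgacagGTTGAAT
miR-181d, 16 bases: acccaccgacaACAAT
miR-181d, 17 bases: acccaccgacaACAATG
The probes of miR-181a and miR-181c shared their first 12 bases, and those of miR-181b and miR-181d their first 11. No more than 1 or 2 bases of a miR-181a probe lay beyond the stretch shared with miR-181c. Over bases 11 to 23 of the miRNA, which the 13-base probe of miR-181a pairs with, miR-181b differs from miR-181a by A21G alone. Whether a probe also read another member was not tested.

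The E11.5 array detected all 4 members, and the E10.5 array detected 2 of them, miR-181b and miR-181d. Detection of a probe required 50% or more of its spots to be well above background, and 1 detected probe made its miRNA detected. Over all miRNAs on the array the share detected was 18.4% at E11.5 and 13.3% at E10.5. At the level of probes, E11.5 gave 6 detected of 8 and E10.5 gave 4. The undetected probes at E11.5 were the 13-base probe of miR-181a and the 18-base probe of miR-181c. Detection at E11.5 only was found for 5.74% of all miRNAs, and miR-181a and miR-181c were among them. Detection at E10.5 only was found for 0.648%, with no member among them. Negative control spots averaged 5.88 ± 5.60 at E11.5 and 7.87 ± 6.16 at E10.5 (SD over 1000 spots each), no miRNA spot was saturated, and the lowest detected probe had an intensity of 29.5 at E11.5 and 30.9 at E10.5.

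**Figure D1:**
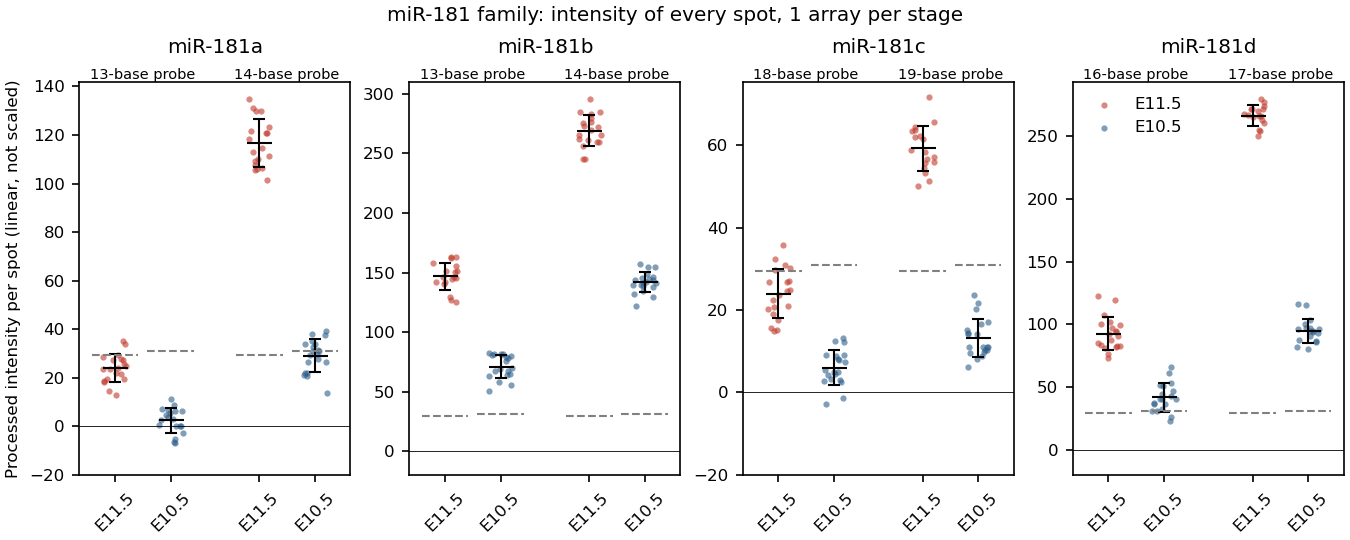
Background-subtracted intensity of each spot of the 8 miR-181 probes (y axis, linear and not scaled between arrays), at E11.5 and E10.5. Points are spots, black bars the mean and SD over spots, and dashed grey lines the lowest detected probe of that array. Before scaling, the E11.5 spots of every probe shown lie above its E10.5 spots, on an array that was brighter as a whole. After scaling, of the 8 probes shown, only the 14-base probes of miR-181a and miR-181b keep their spots apart between the arrays. The share of all probes on the array with spots apart was not counted, before or after scaling. The separation therefore cannot be read as particular to these probes.

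miR-181a and miR-181b come from the same precursor clusters. The 14-base probe of miR-181a had an intensity of 117 ± 9.95 at E11.5 (SD over 19 spots) and 29.2 ± 6.72 at E10.5 (20 spots). Its spots ran from 101 through a median of 115 to 135 at E11.5, and from 13.6 through 30.4 to 39.1 at E10.5. At E11.5, 19 of 19 spots were well above background, against 7 of 20 at E10.5, so the probe lay close to the detection limit at E10.5 and clearly above it at E11.5. The 13-base probe gave 23.9 ± 5.75 at E11.5 (20 spots) and 2.41 ± 5.14 at E10.5 (19 spots), with 2 spots well above background at E11.5 and 0 at E10.5. Its spots ran from 13.1 to 35.2 at E11.5 and from -6.78 to 11.2 at E10.5. Both probes were brighter on the E11.5 array, and the longer one alone was detected there.

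miR-181b was detected by both probes at both stages. Its 14-base probe had an intensity of 269 ± 13.4 at E11.5 (19 spots) and 142 ± 8.59 at E10.5 (20 spots), with spots from 245 through 270.1 to 295 at E11.5 and from 122 through 142 to 157 at E10.5. Its 13-base probe had 147 ± 11.52 at E11.5 (18 spots) and 71.0 ± 9.95 at E10.5 (19 spots), with spots from 125 through 146 to 163 at E11.5 and from 50.6 through 70.2 to 82.4 at E10.5. Neither probe's spots overlapped between the arrays before scaling, and after it those of the 13-base probe did. The unscaled ratio, E11.5 over E10.5, was 1.90 for the longer probe and 2.07 for the shorter.

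miR-181c and miR-181d share the chromosome 8 locus. The 19-base probe of miR-181c had an intensity of 59.2 ± 5.54 at E11.5 (18 spots) and 13.2 ± 4.69 at E10.5 (20 spots). Its spots ran from 50.1 through 58.6 to 71.6 at E11.5 and from 6.18 through 11.1 to 23.6 at E10.5, and 18 of 18 were well above background at E11.5, against 0 of 20 at E10.5. The 18-base probe gave 24.0 ± 5.99 at E11.5 and 6.0 ± 4.29 at E10.5 (20 spots each), with 4 spots well above background at E11.5 and 0 at E10.5. miR-181c was therefore seen only on the later array, by 1 of its probes.

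miR-181d was detected by both probes at both stages. Its 17-base probe had an intensity of 267 ± 8.08 at E11.5 (17 spots) and 95.1 ± 9.60 at E10.5 (18 spots), with spots from 250.1 through 267 to 279 at E11.5 and from 80.1 through 94.7 to 116 at E10.5. Its 16-base probe had 92.7 ± 13.2 at E11.5 (20 spots) and 41.7 ± 11.3 at E10.5 (19 spots), with spots from 73.6 through 91.5 to 123 at E11.5 and from 22.7 through 40.4 to 65.8 at E10.5. At E10.5, 15 of 19 spots of the shorter probe were well above background. The unscaled ratio was 2.80 for the longer probe and 2.22 for the shorter. Before scaling no spot of one array reached the spots of the other, and after it the spots of both probes overlapped between the arrays.

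The E11.5 array was brighter as a whole, so the raw ratios cannot be read as changes of the family alone. Of the 137 miRNAs detected on both arrays by a shared probe, 64.2% were at least 2-fold brighter at E11.5 before scaling and 90.5% were brighter by any amount, with a median log2 difference of 1.24. On this unscaled log2 scale miR-181b differed by 0.99 ± 0.030 and miR-181d by 1.32 ± 0.054, where the errors are standard errors (SE) over the spots of an array and hold no variation between embryos, pools or arrays. Both values lay between the quartiles of all miRNAs, 0.57 and 1.62. The intensities of an array were then divided by their 75th percentile, taken over 218 probes that were detected at both stages, which took 1.31 off every log2 difference. Scaled values describe a level relative to the other detected miRNAs. Both arrays were on 1 slide and were scanned at 1 time, at different positions, so array and stage cannot be told apart.

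After scaling neither measured member was 2-fold apart between the stages. miR-181b was lower at E11.5 by a log2 difference of -0.33 ± 0.030, or 0.797-fold, and both of its probes lay below 0 (-0.39 ± 0.026 and -0.27 ± 0.053). Of the 137 miRNAs, 88 had a higher scaled difference than miR-181b and 64 a higher one than miR-181d. miR-181d was at 0.0057 ± 0.054, which is within its spot SE of no relative difference. Over all 137 miRNAs the median was -0.07, the quartiles were -0.74 and 0.30, 3.65% lay 2-fold or more above their E10.5 level and 13.9% lay 2-fold or more below it. miR-181b was above 0 when unscaled (0.99), when all probes set the 75th percentile (0.89) and when control probes set the scale (0.50), so its direction rests on the scaling.

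The probes of miR-181d did not agree in direction after scaling. The 17-base probe was at 0.17 ± 0.036 and the 16-base probe at -0.16 ± 0.10, a gap of 0.33 ± 0.11 that does not depend on the scaling. Among the 80 miRNAs with over 1 probe measured on both arrays, the median gap between the highest and the lowest probe was 0.06, and 3 had probes on both sides of 0. A larger gap than that of miR-181d was found in 2 of the 80. The value near 0 of miR-181d is thus a mean of a probe above 0 and a probe below it.

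For the members not well above background at E10.5 only a bound can be given. It sets the E11.5 level against the higher of the probe's own E10.5 level and the lowest detected probe of that array (0.160 after scaling). On this basis the excess of miR-181a at E11.5 was at least 1.52-fold after scaling, a log2 bound of 0.60, and at least 3.77-fold without scaling. miR-181c had no bound above 1-fold after scaling and one of at least 1.92-fold without it. Among the 62 miRNAs detected at E11.5 only, 14.5% had a scaled bound above 1-fold and 96.8% an unscaled one, and 4 had a larger scaled bound than miR-181a. Normexp background correction models signal plus background, and an offset of 50 was then added to every corrected intensity. With it the log2 bound of miR-181a was -0.19, which is no bound above 1-fold. The median over the 137 miRNAs measured at both stages was -0.28 under the same correction.

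**Figure D2:**
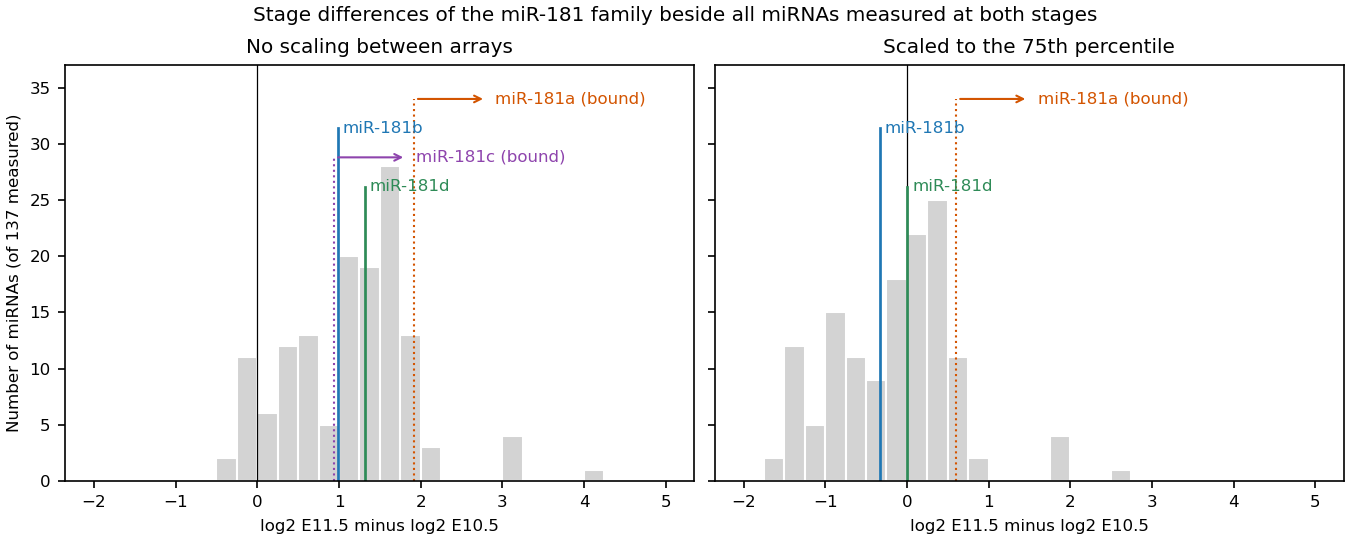
Histogram of the log2 difference, E11.5 minus E10.5 (x axis), over the 137 miRNAs measured at both stages (y axis, number of miRNAs), without scaling (left) and after scaling (right). Solid lines mark miR-181b and miR-181d, and dotted lines with arrows mark the lower bounds of miR-181a and miR-181c; miR-181c has none above 0 after scaling, while miR-181b is at -0.33 and the bound of miR-181a at 0.60.

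Differences between members are free of any scaling common to a whole array. On the log2 scale the stage difference of miR-181d exceeded that of miR-181b by 0.33 ± 0.061. The 4 combinations of a miR-181d probe with a miR-181b probe gave from 0.10 ± 0.11 to 0.56 ± 0.044, with the 16-base and 13-base probes at the low end and the 17-base and 14-base probes at the high end. The low end lay within its spot SE. The bound of miR-181a exceeded the difference of miR-181b, its neighbour in both clusters, by 0.93, and that of miR-181d by 0.60. That of miR-181c lay 0.05 below miR-181b and 0.38 below miR-181d, and since it is a lower bound these values fix no order. The excess of miR-181a over miR-181b was 0.22 with normexp, and was -0.063 where dim probes were kept at a floor (the lowest detected probe). With 1 array per stage, whether these gaps exceed the variation between arrays was not tested.

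**Figure D3:**
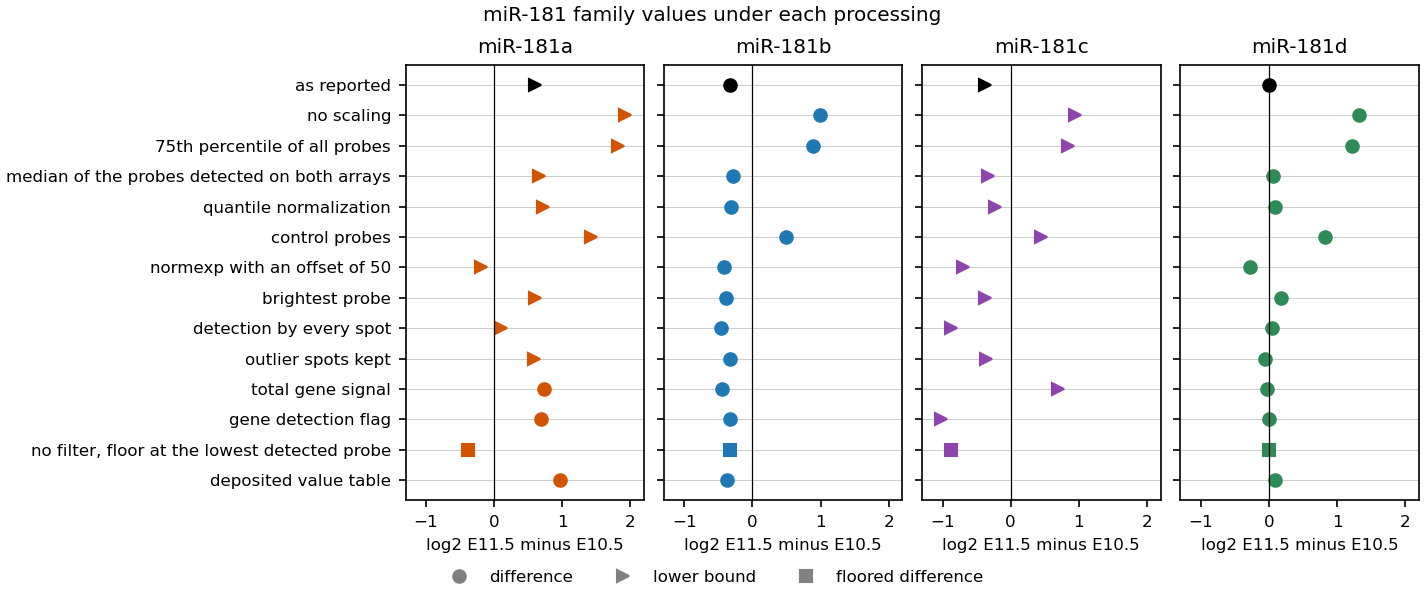
Log2 difference or bound, E11.5 minus E10.5 (x axis), of each miR-181 member under the reported processing (black) and each alternative (colour, y axis). Circles are differences, triangles lower bounds and squares values with dim probes at a floor; miR-181b lies above 0 under the scalings named above, and miR-181d runs from -0.28 with normexp to 1.32 with no scaling.

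The deposited value table, made by the authors with 1 value per miRNA, gave a like order. In it miR-181a had 28.2 at E11.5 and 14.5 at E10.5, a log2 difference of 0.96. miR-181b had 83.4 at E11.5 and 108 at E10.5 (-0.38), and miR-181d 70.7 at E11.5 and 66.5 at E10.5 (0.09). miR-181c had 16.6 at E11.5 and 0.1, the entry for an undetected miRNA, at E10.5. The table thus counted 3 members at E10.5, with miR-181a as the third, as did the detection flag that Feature Extraction gives per miRNA. Every one of its 188 values above 0.1 at E10.5 also occurred at E11.5, so both columns share 1 set of values and a fold in it is a change of rank among miRNAs.

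The opposite arms of the same precursors were not detected at either stage. The array held 6 of them (miR-181a-1*, miR-181a-2*, miR-181b-1*, miR-181b-2*, miR-181c* and miR-181d*) on 14 probes, and 0 of 232 spots at E11.5 and 0 of 228 at E10.5 were well above background. Probe means ran from -3.47 to 17.1 at E11.5 and from -4.26 to 13.3 at E10.5, below the lowest detected probes. The highest at both stages was the 18-base probe of miR-181a-1*, the arm opposite miR-181a in the chromosome 1 precursor, with 17.1 ± 3.40 at E11.5 (18 spots) and 13.3 ± 6.65 at E10.5 (20 spots). A level in these arms was thus not detectable here, and the arrays do not tell which of the 2 loci of miR-181a and miR-181b was active.

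**Figure D4:**
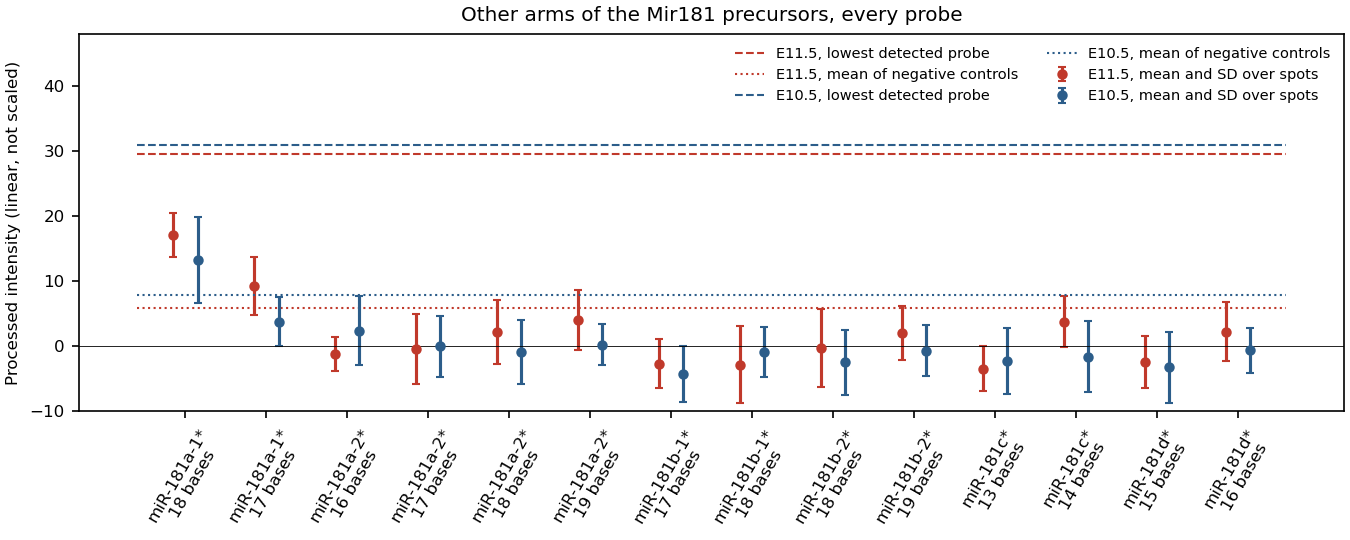
Intensity (y axis, linear, not scaled) of the 14 probes for the opposite arms of the Mir181 precursors at E11.5 and E10.5, as mean and SD over spots. Dashed lines mark the lowest detected probe and dotted lines the mean of the negative controls of each array; all probe means lie below the dashed lines, and the 18-base probe of miR-181a-1* is the highest at both stages.

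The miRNAs closest to a measured member in scaled stage difference, over these 2 arrays, lay outside the family by rule. For miR-181b they were miR-341 (-0.29 ± 0.047), miR-99b (-0.29 ± 0.021) and miR-22 (-0.38 ± 0.048). For miR-181d they were miR-345-5p (-0.0070 ± 0.031), miR-27a (0.03 ± 0.030) and miR-26b (0.03 ± 0.024). With so many miRNAs near these values, closeness over 2 arrays is a description only.

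Other miRNAs linked to muscle were set beside the family. Of 6 striated muscle miRNAs looked up by name, the E11.5 array detected 4 (miR-1a, miR-133a, miR-133b and miR-206) and the E10.5 array 0. Over all 6, detected or not, the brightest probes ran from 1.29 to 284 at E11.5 and from -1.87 to 7.96 at E10.5. Of 15 miRNAs linked to myoblast differentiation, the E11.5 array detected 7 and the E10.5 array 6. The 6 measured at both stages all had positive scaled differences, from 0.07 ± 0.012 (miR-214) to 0.62 ± 0.054 (miR-503), with a median of 0.28, where 47.4% of all 137 miRNAs were positive. miR-181b and miR-181d, with -0.33 and 0.0057, lay below all 6. The lower bound of miR-181a, 0.60, lay above miR-214, miR-26a, miR-322 and miR-24 and below miR-27b and miR-503, and as a bound it fixes no order with miR-27b and miR-503. miR-181c had no bound above 1-fold to set beside them. The list was matched by exact name, which left out miR-125b-5p, an arm-specific entry that was measured at both stages with a scaled difference of 0.34 ± 0.012.

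Markers of blood and other tissues were read because lymphoid cells carry much miR-181. Their intensities and sums are not scaled, while the 75th percentile used for scaling was 2.49-fold higher at E11.5. The sums include miRNAs that were not detected. Of 6 leukocyte miRNAs the E11.5 array detected 1, miR-223, and the E10.5 array 0, and the summed intensity of their brightest probes was 65.7 at E11.5 and 42.5 at E10.5. miR-150, a lymphocyte miRNA, was at -0.48 on the E11.5 array and -2.17 on the E10.5 array. miR-142-3p, expressed across blood lineages, was at 15.5 for E11.5 and 12.6 for E10.5, below the detection limit. The erythroid miR-451 had an intensity of 149 at E11.5 and 91.5 at E10.5 and a scaled difference of -0.60 ± 0.033, and its list partner miR-144 was not detected. The endothelial miR-126-3p had 449 at E11.5 and 317 at E10.5, a scaled difference of -0.81 ± 0.012, and miR-126-5p was not detected. Among 5 neural miRNAs the E11.5 array detected 2 and the E10.5 array 1, with sums of 219 at E11.5 and 59.2 at E10.5, and miR-124 was at 0.034 for E11.5 and -3.05 for E10.5. The neural miRNA measured at both stages, miR-218, had 115 at E11.5 and 32.8 at E10.5 and a positive scaled difference of 0.50 ± 0.063, and miR-128 was detected at E11.5 only. Among epithelial miRNAs the counts were 5 of 7 at E11.5 and 4 at E10.5, their sums were 792 at E11.5 and 718 at E10.5, and the 4 measured had scaled differences from -1.59 ± 0.034 (miR-200c) to -0.85 ± 0.018 (miR-205). The part of these cell types in the miR-181 values was not tested.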

How the data were processed

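RNA of 1 pool of 40 embryos per stage was read on 1-colour Agilent miRNA arrays (design 031184, mm9). Per the file headers, the authors' scanner files hold the intensity of each spot after background subtraction and spatial detrending in Feature Extraction 10.7.1.1 (9.5.1.1 in the submitters' processing notes), with no normalization between arrays. The deposited value table has 1 linear intensity for each miRNA, and its normalization is not given in the sources used here.

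Outlier-flagged spots (2118 of 43200 at E11.5, 2058 at E10.5) were left out and the others averaged per probe, scaled and put on the log2 scale as described above. Probes detected at both stages were averaged within a miRNA. Precision is limited by the number of arrays. Names follow the files, with the suffix _v16.0 removed. Named were all members, their opposite arms, the 3 nearest miRNAs per measured member, and the highest and lowest measured of each list, with others chosen after their values were seen. miR-208a, miR-125b and miR-486 were not on the array under those exact names, and arm-specific entries were not added to the lists. The members and lists were chosen with earlier results of these data known. Alternatives covered scaling, background correction, probe summary, detection, dim and outlier spots, and the value table. The steps for miRNAs measured at both stages were tested on simulated data with known changes beyond 2-fold. Detection there used a fixed intensity cut, not the scanner flag. Lower bounds, smaller changes and the alternatives were not checked in that way. Python 3.11.15, numpy 2.4.6, pandas 2.3.3, matplotlib 3.10.9, R 4.3.3 and limma 3.58.1 were used.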

Additional observations from a re-analysis of the deposited data

How the results depend on the processing

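No paired analysis was possible because each stage has 1 array. A value counted as moved where it changed by over 1 spot SD of the member. The bound of miR-181a (0.60 as reported) was 1.92 unscaled, 1.82 when all probes set the 75th percentile, 1.42 when control probes set the scale, 0.10 with detection by every spot and 0.96, as a difference, with the value table. It was -0.19 with normexp and -0.39 with no filter and a floor, where its dim 13-base probe sits at both floors by construction. miR-181b (-0.33) was 0.99, 0.89 and 0.50 under the same 3 scalings, and from -0.45 to -0.28 under the other 10 alternatives. miR-181c (-0.38, no bound above 1-fold) was 0.94, 0.84 and 0.45 under the same 3 scalings, 0.69 with the total gene signal, and -1.03 where the per-miRNA flag set detection, while the deposited table gave none. miR-181d (0.0057) was 1.32, 1.22 and 0.83 under those scalings and -0.28 with normexp, where the median over all miRNAs was also -0.28. The excess of miR-181d over miR-181b (0.33) ran from 0.13 with normexp to 0.56 with the brightest probe, above 0 in all 13 alternatives. Those that change only a common scale give 0.33 by construction and are no check of it. The per-miRNA flag and the floor also give 0.33 by construction and are no check of it. Both probes of each of these members were detected at both stages, so neither setting alters their values. That of miR-181a over miR-181b (0.93) was 0.22 with normexp, 0.55 with detection by every spot, 1.34 with the value table and -0.063 with the floor. These comparisons between members were added after seeing the data, as were the alternatives for the counts over all miRNAs. The count at least 2-fold higher (5) was 88, 80 and 49 under the 3 scalings and 9 with the value table. The count at least 2-fold lower (19) was 0 under each of the 3 scalings and 35 with the total gene signal. The count of members detected at E11.5 was 4 under each detection alternative, and that at E10.5 was 2 or 3. Apart from the cause named for the floor, the cause was not tested. miR-181a at E10.5 and miR-181c at E10.5 lay too near the background for more than a bound.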
